A study of Homo sapiens with 3 samples.

Results

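The genes described here are 47 genes of autophagy, of ER-phagy and of the lysosome, followed in 3 RNA-seq libraries of human cells in which HRD1 was silenced. They were chosen by name: a gene belongs to the group if its row in the deposited gene tables carries one of the 47 gene symbols, and all 47 were found among the 58243 genes measured. By role they comprise 25 genes of the autophagy machinery, 6 ER-phagy receptors, 14 lysosomal genes and the transcription factors TFEB and TFE3. The study used cells labelled LoVo, a human colorectal carcinoma line, with a Tet-On hairpin, switched on by doxycycline, against HRD1, the gene listed as SYVN1, which encodes a ubiquitin ligase of the endoplasmic reticulum. It asked how the ER stress that follows the loss of HRD1 changes gene expression. Cells were given doxycycline at 1 µg/ml for 0, 3 or 5 days, and there is 1 library for each time. All 3 libraries come from cells that carry the hairpin, so the day 0 library is the uninduced hairpin line, and neither doxycycline alone nor a non-targeting hairpin is among the samples analysed here.

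Autophagy encloses cytoplasm in a membrane vesicle, the autophagosome, which fuses with the lysosome, where hydrolases break the contents down. A kinase complex starts the process, a lipid kinase complex and membrane carriers build the membrane, and a pair of ubiquitin-like conjugation systems attach proteins of the ATG8 family to it, to which cargo receptors bind. In ER-phagy the cargo is the endoplasmic reticulum itself, recognised by receptors that sit in or on the ER and bind ATG8 proteins. Autophagy disposes of ER and protein that ER-associated degradation, the pathway of HRD1, has not removed, and in mouse fibroblasts the stress factors ATF4 and CHOP drive many of its genes.

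The libraries held 21308785, 22068686 and 25754188 gene reads on days 0, 3 and 5. SYVN1 had 1212, 650 and 709 reads, or 56.1, 30.4 and 27.0 normalised CPM. CPM here are read counts scaled to the library total multiplied by its TMM factor, a normalisation factor given further on. The targeted transcript was thus lower in both libraries from doxycycline-treated cells. HSPA5, the ER chaperone BiP, had 1071, 1764 and 1453 CPM, and ATF4 had 259, 336 and 308 CPM. The LoVo label was set against markers of its tissue. Keratins KRT8, KRT18 and KRT19 were abundant, at 465, 728 and 137 TPM, the authors' measure per transcript length, on day 0, but EPCAM was at 0.724 TPM, CDH1 at 0.0984 TPM and CDX2 at 0 reads in all 3 libraries. VIM, a mesenchymal marker, was at 4016 TPM on day 0, and 8 of 10 mesenchymal markers reached 1 TPM in each library, against 3 of 10 colon epithelial markers. The label is therefore used below only as a label. In the day 5 library 10 of 12 liver and blood markers reached 1 TPM, against 2 on day 3 and 1 on day 0, and ALB had 114 reads on day 5 and 0 on both other days. Macrophage markers, which bear on lysosomal genes, summed to 16, 44 and 103 reads on days 0, 3 and 5, with 0, 0 and 2 of 10 at 1 TPM or more. The part of these reads in the values below was not tested. In a bulk library, fewer cells of a type and less RNA per cell cannot be told apart.

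With 1 library per time there is no replicate error and no test of a condition. Each ratio below is a log2 ratio of TMM-normalised reads with an exact 95% interval that covers counting error only. A gene is called higher or lower where it was higher by at least 25%, or lower by the same factor, which is 0.32 on the log2 scale, and the interval excluded equality. Of the 47 members, 46 had the mean of 50 reads needed to be compared. The exception was ULK2, a kinase paralogous to ULK1, with 0, 2 and 4 reads on days 0, 3 and 5; the floor of 3 reads corresponds to 0.139, 0.140 and 0.114 CPM, and no fold is given.

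Few members were called at either time. On day 3 against day 0, 3 of the 46 members were called higher and 0 lower, against 6.27% of all 12593 compared genes called higher and 8.08% called lower. The 3 were NPC2, MAP1LC3B and GABARAPL1, and their share, 6.52%, is near that background. By day 5, 1 member was called higher than on day 0, ATG12, against 6.56% of all genes, and 1 lower, TFEB, against 5.15%. Between day 5 and day 3, ATG12 was again the 1 member called higher, against 9.01% of all genes, and GABARAP the 1 called lower, against 6.90%. No member reached 1.5-fold in any of the 3 comparisons. Of all genes, 1.29%, 1.76% and 2.29% were that much higher on day 3 against day 0, day 5 against day 0 and day 5 against day 3. In the same order, 2.53%, 1.28% and 0.961% were that much lower. At shares this low a group of 46 genes can hold none, so the absence does not set the members apart. The 3 comparisons share libraries in pairs, so their values are given side by side and not as separate evidence.

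**Figure D1:**
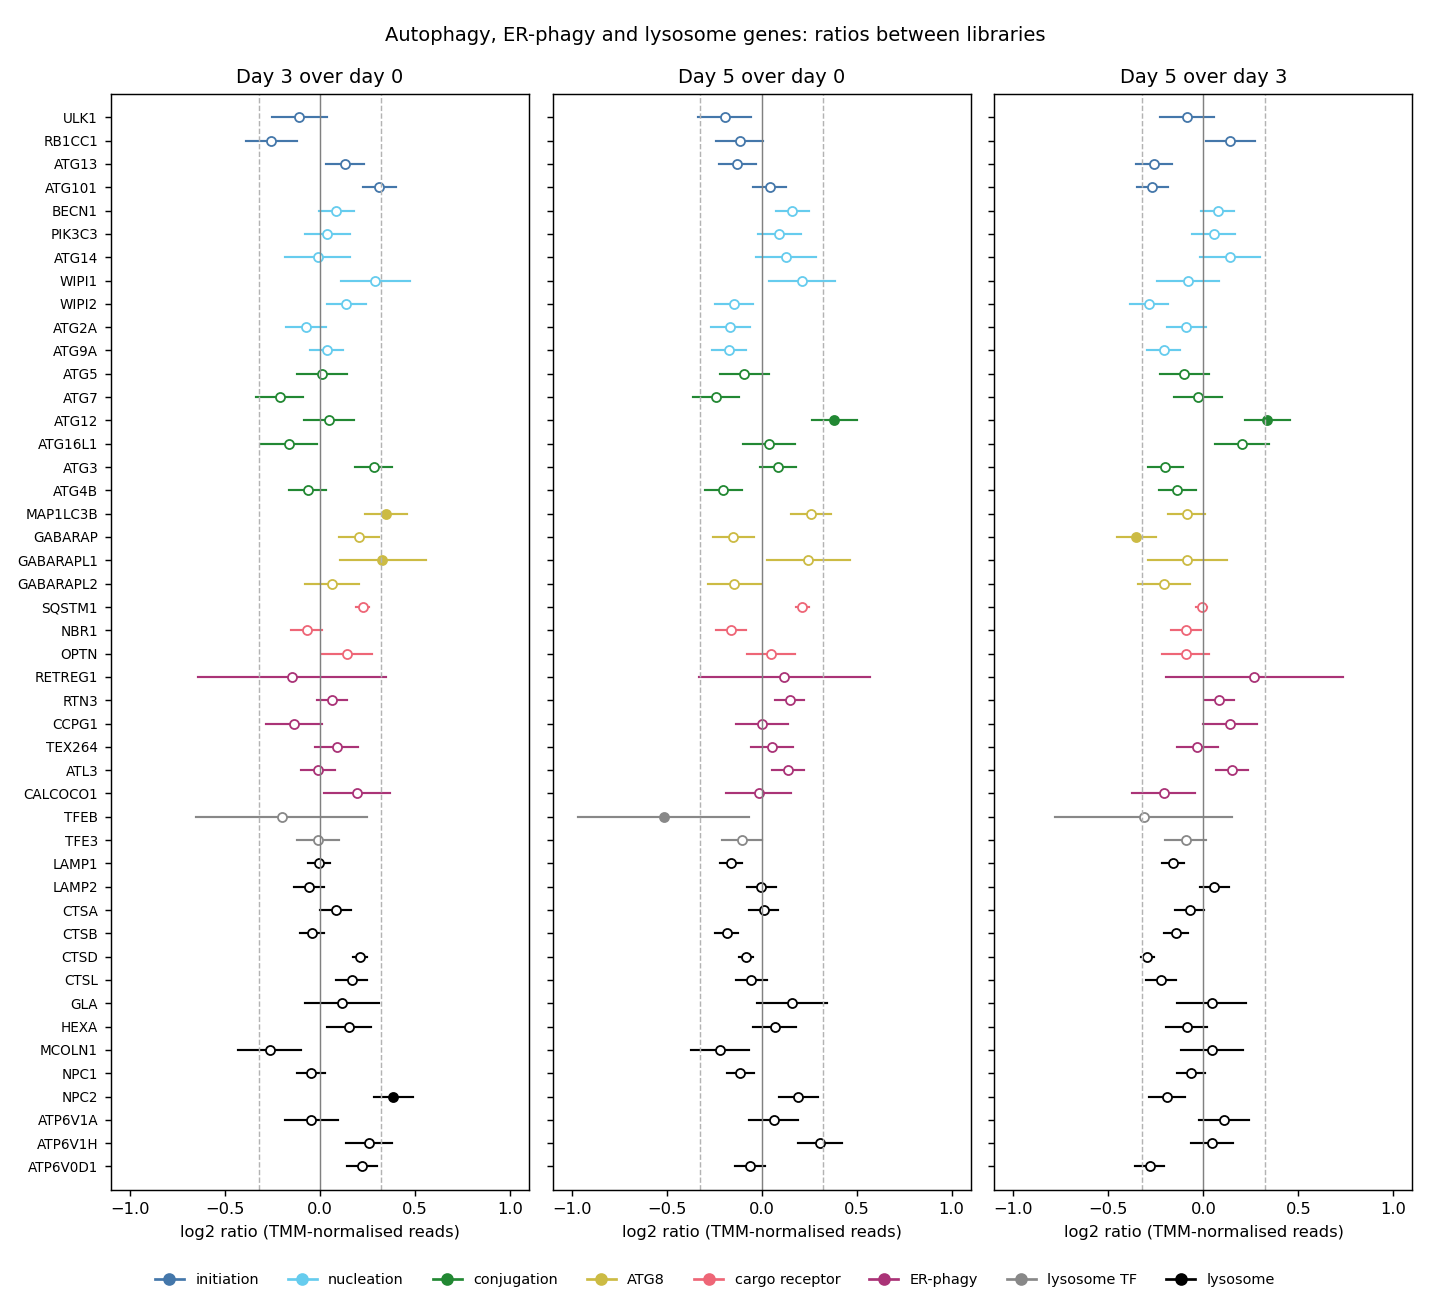
Log2 ratios of the 46 compared members (rows, grouped by role) on day 3 over day 0, day 5 over day 0 and day 5 over day 3 (panels). Bars are exact 95% intervals for counting error, dashed lines mark the size threshold and filled points are members called: 3 on day 3 over day 0, and 2 in each other comparison.

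The median log2 ratio of the 46 members was 0.06 on day 3 against day 0, -0.00 on day 5 against day 0 and -0.09 on day 5 against day 3, where the medians over all compared genes were 0.01, 0.01 and 0.00. On day 3, 27 of 46 members lay above their day 0 level, against 52.0% of all genes. On day 5, 23 of 46 lay above day 0, against 51.2% of all genes, and 15 of 46 lay above day 3, against 50.1%. Intervals that excluded equality lay above it for 18 members and below it for 4 on day 3 against day 0, where 25.2% and 20.8% of all genes did so. The matching counts were 10 above and 16 below on day 5 against day 0 (22.8% and 22.4% of all genes), and 5 above and 16 below on day 5 against day 3 (24.0% and 26.1%). The summed level of all members was 3375, 3394 and 3329 TPM on days 0, 3 and 5.

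**Figure D2:**
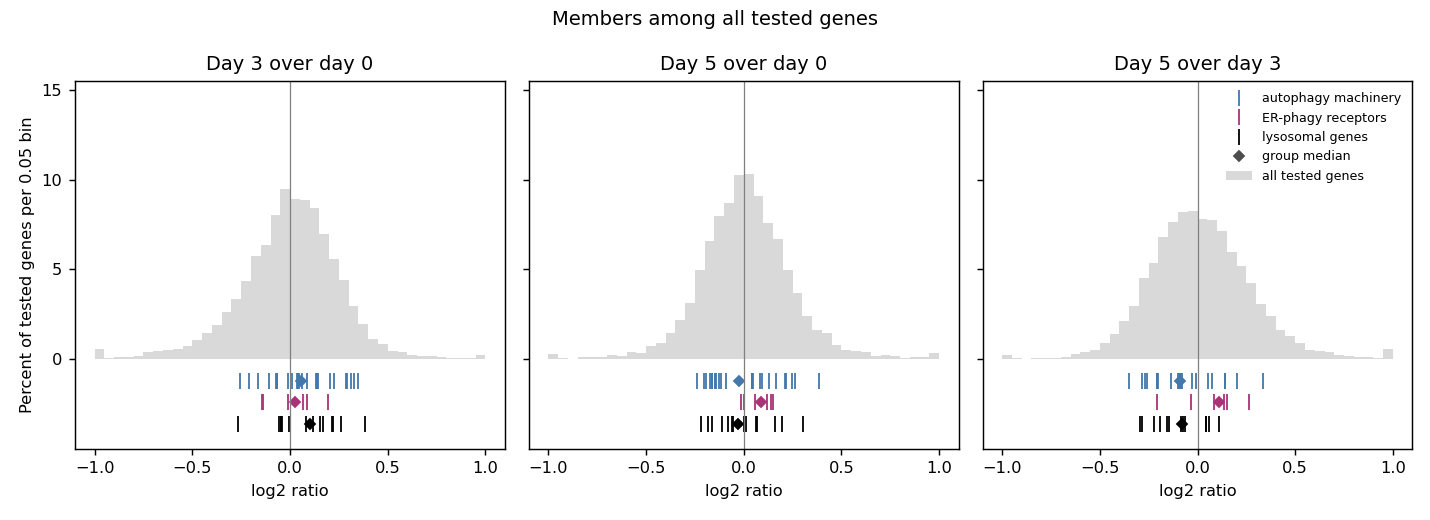
Log2 ratios of members (ticks, by group) under the distribution of all 12593 compared genes (grey, percent of genes per 0.05 bin; the end bins hold values beyond 1 and -1), with diamonds for group medians. Members sit in the body of the distribution, with medians of 0.06, 0.03 and 0.10 for autophagy machinery, ER-phagy receptors and lysosomal genes on day 3 over day 0.

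The 3 groups differed little in their medians. The autophagy machinery, with 24 genes compared, had a median of 0.06 on day 3 against day 0 and -0.02 on day 5 against day 0. The 6 ER-phagy receptors had medians of 0.03 and 0.09, and the 14 lysosomal genes 0.10 and -0.03. The medians of day 5 against day 3 were -0.09 for autophagy machinery, 0.11 for ER-phagy receptors and -0.08 for lysosomal genes. With trends on transcript length and GC content removed, as described further on, the last ER-phagy median was -0.02.

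Autophagy starts with the kinase complex around ULK1. Of the 4 initiation genes compared, none was called. Of all genes, 6.27%, 6.56% and 9.01% were called higher in the 3 comparisons, and 8.08%, 5.15% and 6.90% lower. At these shares a group of 4 can hold none. The highest on day 3 against day 0 was ATG101, a stabiliser of the kinase complex, with 90.4, 112 and 93.1 CPM on days 0, 3 and 5, a log2 ratio of 0.31 (0.22 to 0.40) on day 3. The lowest was RB1CC1, the scaffold also called FIP200, with 46.7, 39.1 and 43.1 CPM and a log2 ratio of -0.26 (-0.39 to -0.12) on day 3. ULK1 had 38.5, 35.7 and 33.6 CPM. The 2 extremes thus pointed in opposite directions on day 3, and in these values both were nearer to day 0 on day 5. With trends on transcript length and GC content removed, ATG101 was at 0.23 on day 3 and 0.13 on day 5. RB1CC1 was then at -0.15 and -0.23, so for RB1CC1 this order did not hold. Of ATG101's reads, 79.2% were uniquely placed.

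None of the 7 genes that build the membrane was called, and at the shares of all genes just given a group of 7 can hold none. On day 3 they ranged from -0.07 for ATG2A, a lipid transfer protein, to 0.29 (0.11 to 0.47) for WIPI1, which binds the lipid that the kinase PIK3C3 makes. WIPI1 had 21.5, 26.4 and 24.9 CPM on days 0, 3 and 5. Of its reads 80.6% were uniquely placed, and on those alone WIPI1 was at 0.37 (0.17 to 0.57) on day 3, which is called. Its paralogue WIPI2 had 69.4, 76.4 and 62.7 CPM. Against day 0, WIPI1 was thus above on both later days and WIPI2 above on day 3 and below on day 5. BECN1, PIK3C3 and ATG14, core subunits of the lipid kinase complex, had day 3 ratios of 0.09, 0.04 and -0.01 and day 5 ratios of 0.16, 0.09 and 0.13.

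Among the 6 conjugation genes, ATG12, the ubiquitin-like protein joined to ATG5, was called on day 5. ATG12 (ENSG00000145782, GRCh38 chromosome 5 from 115828200 to 115841858, minus strand) had 942, 962 and 1493 reads, or 43.6, 45.05 and 56.9 CPM, on days 0, 3 and 5. The day 5 library stood above both others, which were close to each other. The log2 ratio was 0.38 (0.27 to 0.50) on day 5 against day 0, 0.34 (0.22 to 0.45) on day 5 against day 3 and 0.05 (-0.08 to 0.18) on day 3 against day 0. Its neighbour AP3S1, which overlaps it on the opposite strand, had 1386, 1529 and 2072 reads and a log2 ratio of 0.30 (0.20 to 0.40) on day 5 against day 0; nothing in the labels says that counting used strand, so reads of the overlap cannot be told apart. ATG12 transcripts are also poor in G and C, at 37.5%, and with the length and GC trends removed its ratios were 0.28 against day 0 and 0.11 against day 3, neither of them called.

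The other 5 conjugation genes were within the size threshold in all 3 comparisons. At the shares of all genes called, a group of 5 can hold none. ATG5 had 43.0, 43.3 and 40.3 CPM on days 0, 3 and 5, and ATG16L1, which joins the ATG12 and ATG5 pair, had 36.5, 32.6 and 37.5 CPM. ATG7, the activating enzyme of both conjugation systems, was the lowest of the 6 at both times, with 52.3, 45.1 and 44.3 CPM and log2 ratios of -0.21 (-0.34 to -0.09) on day 3 and -0.24 (-0.36 to -0.12) on day 5. ATG3, the conjugating enzyme for ATG8 proteins, was the highest on day 3, at 0.28 (0.19 to 0.38), with 73.0, 89.0 and 77.5 CPM. ATG4B, the protease that trims ATG8 proteins, had 77.6, 74.2 and 67.4 CPM.

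The ATG8 genes gave 2 of the 3 members called on day 3, where 6.27% of all genes were called higher. All 4 had ratios above 0 on day 3 against day 0, with a median of 0.27, against 52.0% of all genes. For GABARAPL2 that interval, -0.08 to 0.20, included equality, and with the length and GC trends removed its ratio was -0.06. On day 5 against day 3 all 4 had ratios below 0, with a median of -0.15, where 50.1% of all genes lay above 0. For MAP1LC3B and GABARAPL1 those intervals, -0.19 to 0.01 and -0.29 to 0.12, included equality. On the authors' TPM both were higher on day 5 than on day 3, at 55.9 against 54.9 and 16.8 against 16.3. MAP1LC3B, which encodes LC3B, the common marker of autophagosomes (ENSG00000140941, GRCh38 chromosome 16 from 87383995 to 87404779, plus strand), had 1250, 1573 and 1818 reads, or 57.9, 73.7 and 69.3 CPM. Both later libraries stood above day 0, by 0.35 (0.24 to 0.46) on day 3 and 0.26 (0.15 to 0.36) on day 5 on the log2 scale, and the day 5 library was at -0.09 (-0.19 to 0.01) against day 3. GABARAPL1 (ENSG00000139112, chromosome 12 from 10212458 to 10223130, plus strand), a GABARAP-type ATG8 protein, had 293, 364 and 422 reads, or 13.6, 17.0 and 16.1 CPM. Its ratio was 0.33 (0.10 to 0.56) on day 3, with the widest interval of the 3 genes called, and 0.25 (0.03 to 0.47) on day 5.

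GABARAP and GABARAPL2 differed from these 2 genes in being lowest on day 5. GABARAP was highest on day 3. For GABARAPL2 the order of days 0 and 3 is not resolved, and it had 112.8, 111.1 and 101.8 TPM on days 0, 3 and 5. GABARAP (ENSG00000170296, chromosome 17 from 7240014 to 7242770, minus strand) had 1381, 1573 and 1514 reads, or 63.9, 73.7 and 57.7 CPM. It was called lower on day 5 against day 3, at -0.35 (-0.46 to -0.25), with 0.20 (0.10 to 0.31) on day 3 against day 0 and -0.15 (-0.25 to -0.04) on day 5 against day 0. GABARAPL2 had 37.9, 39.6 and 34.3 CPM and ratios of 0.06, -0.14 and -0.21 in the same 3 comparisons. The values of both genes are uncertain, since 44.9% of GABARAP reads and 75.1% of GABARAPL2 reads were uniquely placed. On uniquely placed reads alone GABARAP was at 0.34 on day 3 against day 0, which is called, and at -0.45 on day 5 against day 3.

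**Figure D3:**
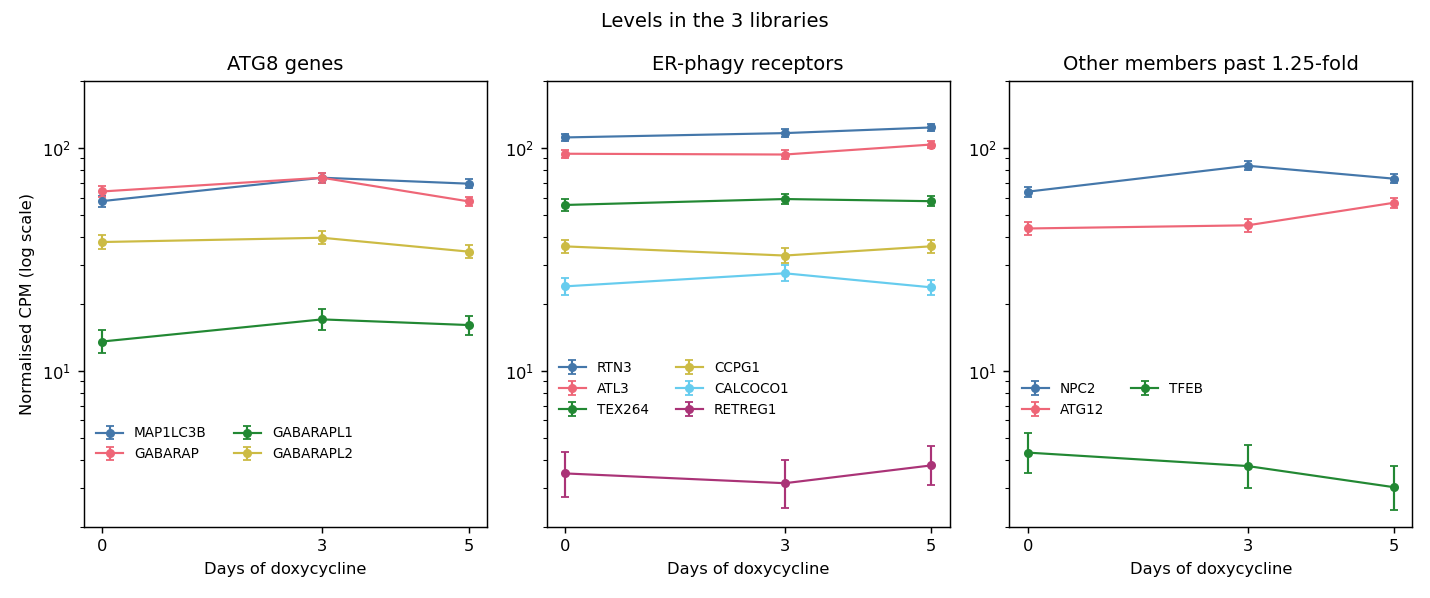
Normalised CPM on a log scale against days of doxycycline for the ATG8 genes, the ER-phagy receptors and the other members called, with exact 95% Poisson intervals (counting error only; 1 library per point). MAP1LC3B is at 57.9, 73.7 and 69.3 CPM on days 0, 3 and 5, and each ER-phagy receptor stays within the size threshold.

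The day 3 calls rest in part on the scaling. Without TMM factors the ratio was 0.28 for MAP1LC3B, 0.26 for GABARAPL1 and 0.32 for NPC2, and on the authors' TPM values it was 0.21, 0.17 and 0.26, so that none of the 3 was called in either. These scalings also moved the median of all compared genes on day 3 against day 0, by -0.07 without TMM factors and by -0.09 on TPM, and without TMM factors every gene is shifted alike. Of the 3, only MAP1LC3B was still called with the length and GC trends removed, at 0.35. On exon reads only NPC2 was still called, at 0.35, while MAP1LC3B was at 0.31. All 3 kept their sign under all 7 alternatives. These gave 0.21 to 0.37 for MAP1LC3B, 0.17 to 0.33 for GABARAPL1 and 0.26 to 0.39 for NPC2.

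Cargo receptors link ubiquitin-tagged cargo to ATG8 proteins, and none of the 3 was called. At the shares of all genes called, a group of 3 can hold none. SQSTM1, also known as p62, is itself degraded by autophagy and is also induced by oxidative stress. It was the second most abundant member per length and had 13203, 15252 and 18616 reads, or 611, 714 and 709 CPM, on days 0, 3 and 5. Both later libraries stood above day 0 and were close to each other, with log2 ratios of 0.22 (0.19 to 0.26) on day 3, 0.21 (0.18 to 0.25) on day 5 and -0.01 (-0.04 to 0.02) on day 5 against day 3. NBR1 had 119.9, 114 and 107 CPM, with -0.07 (-0.15 to 0.01) on day 3 and -0.16 (-0.24 to -0.08) on day 5. OPTN had 43.1, 47.6 and 44.6 CPM, with 0.14 (0.01 to 0.27) on day 3 and 0.05 (-0.08 to 0.17) on day 5. With the length and GC trends removed, SQSTM1 was at 0.35 on day 5 against day 0, past the threshold. Of its reads 77.8% were uniquely placed.

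The 6 ER-phagy receptors were all within the size threshold in the 3 comparisons. Of all genes, 6.27%, 6.56% and 9.01% were called higher in the 3 comparisons, and 8.08%, 5.15% and 6.90% lower. At these shares a group of 6 can hold none. RTN3, a receptor of ER tubules through its long isoform, had 2413, 2494 and 3250 reads, or 112, 117 and 124 CPM, on days 0, 3 and 5. Its log2 ratio was 0.06 (-0.02 to 0.15) on day 3 and 0.15 (0.07 to 0.23) on day 5, and gene reads do not separate its isoforms. ATL3, a membrane-shaping GTPase that also acts on tubules, had 94.4, 93.6 and 104 CPM, with -0.01 (-0.10 to 0.08) on day 3 and 0.14 (0.05 to 0.22) on day 5. For these 2 receptors the day 5 library was the highest of the 3. With the length and GC trends removed, RTN3 and ATL3 were each at -0.02 on day 5 against day 3, so this order did not hold.

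TEX264, a receptor with a long disordered tail, had 55.6, 59.1 and 57.8 CPM, with ratios of 0.09 (-0.03 to 0.20) on day 3 and 0.06 (-0.05 to 0.17) on day 5. CALCOCO1, a soluble receptor that docks on ER proteins VAPA and VAPB, had 24.0, 27.4 and 23.7 CPM, with 0.19 (0.02 to 0.37) on day 3, -0.01 (-0.18 to 0.16) on day 5 and -0.21 (-0.37 to -0.04) on day 5 against day 3. In CPM, TEX264 and CALCOCO1 were both at their highest in the day 3 library. For TEX264 this order is not resolved: its ratio on day 5 against day 3 was -0.03 (-0.14 to 0.08). With the length and GC trends removed that ratio was 0.06, and TEX264 had 39.4, 39.7 and 41.6 TPM on days 0, 3 and 5. RETREG1, also called FAM134B, the receptor of ER sheets, had 75, 67 and 99 reads, or 3.47, 3.14 and 3.77 CPM. At that depth its interval on day 3, -0.64 to 0.35 around -0.14, reaches past the threshold in both directions.

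CCPG1, a receptor that is itself a target of the unfolded protein response, had 783, 704 and 952 reads, or 36.2, 33.0 and 36.3 CPM. Its ratios were -0.14 (-0.29 to 0.01) on day 3 and 0.00 (-0.14 to 0.14) on day 5. These values are uncertain, since 7.9% of its reads were uniquely placed and the readthrough gene DNAAF4-CCPG1, annotated over the same region and strand, had 1, 48 and 0 reads. HSPA5, in the same libraries, had log2 ratios of 0.72 on day 3 and 0.44 on day 5.

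Per length, the order of the receptors on day 0 was RTN3 at 83.1 TPM, ATL3 at 53.4, TEX264 at 39.4, CCPG1 at 17.5, CALCOCO1 at 11.5 and RETREG1 at 2.44. The order was the same in the other 2 libraries. Their sum was 207, 197 and 223 TPM on days 0, 3 and 5. The ATG8 genes summed to 298, 311 and 284 TPM, led by GABARAP at 123 TPM and GABARAPL2 at 113 TPM on day 0, ahead of MAP1LC3B at 47.3 TPM and GABARAPL1 at 14.4 TPM.

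TFEB and TFE3 are related transcription factors that switch on lysosomal and autophagy genes when they enter the nucleus. TFEB (ENSG00000112561, GRCh38 chromosome 6 from 41683978 to 41736259, minus strand) was, beside RETREG1, among the 2 least abundant members compared, with 93, 80 and 79 reads, or 4.30, 3.75 and 3.01 CPM, on days 0, 3 and 5. It was called lower on day 5 against day 0, at -0.51 (-0.97 to -0.07), with -0.20 (-0.65 to 0.25) on day 3. The call rests on few reads: the ratio was -0.35 on exon reads and -0.29 on the authors' TPM, and neither was called. TFE3 was far more abundant per length, at 61.0, 56.2 and 55.8 TPM against 2.69, 2.38 and 2.11 TPM for TFEB. TFE3 had 62.6, 62.2 and 58.3 CPM, with ratios of -0.01 (-0.12 to 0.10) on day 3 and -0.10 (-0.21 to 0.00) on day 5. Both factors are controlled chiefly by where the protein is in the cell, which transcript levels do not report.

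The DNA motif these factors recognise, TCACGTG, was looked for on both strands in 300-base promoter windows from RefSeq (GRCh38.p14), which run from 250 bases before to 50 after each gene's start. Windows were found for 40 of the 47 members; none was used for RB1CC1, CALCOCO1, LAMP2, CTSB, HEXA, ATP6V1A and ATP6V1H. The motif was in 7 of 40 member windows, 17.5%, and in 3.82% of all 27305 windows. It was in 5 of 9 lysosomal windows, 2 of 24 autophagy windows and 0 of 5 ER-phagy receptor windows. The shorter E-box CACGTG, contained in it, was in the same number of member windows, 7, and in 7.43% of all windows. The longer CLEAR palindrome, which extends TCACGTG to a self-complementary element and contains both, was in the window of MCOLN1 and in 0.381% of all windows. The ATF4-type motif TGATGNAA was in 0 member windows and 3.67% of all windows. The stretches with TCACGTG are shown because they mark the members that carry the letters of the lysosomal motif; capitals mark TCACGTG or its reverse complement CACGTGA, and each runs 5′ to 3′ on the strand of its gene.
MCOLN1, chr19:7522562-7522623 (+ strand): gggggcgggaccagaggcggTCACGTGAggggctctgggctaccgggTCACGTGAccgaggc
LAMP1, chr13:113297026-113297237 (+ strand): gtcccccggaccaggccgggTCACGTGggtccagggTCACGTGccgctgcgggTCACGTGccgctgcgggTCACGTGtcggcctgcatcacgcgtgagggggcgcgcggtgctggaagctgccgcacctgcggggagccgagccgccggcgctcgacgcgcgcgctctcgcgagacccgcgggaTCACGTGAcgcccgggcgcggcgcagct
CTSA, chr20:45891272-45891334 (+ strand): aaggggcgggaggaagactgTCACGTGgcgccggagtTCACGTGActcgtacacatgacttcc
CTSD, chr11:1763948-1763994 (- strand): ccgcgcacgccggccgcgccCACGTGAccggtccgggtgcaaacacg
ATP6V0D1, chr16:67481190-67481237 (- strand): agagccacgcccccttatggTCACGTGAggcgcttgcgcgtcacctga
ATG14, chr14:55411831-55411871 (- strand): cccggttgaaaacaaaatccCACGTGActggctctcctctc
ATG3, chr3:112561963-112562001 (- strand): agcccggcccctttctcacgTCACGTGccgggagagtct

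The LAMP1 stretch holds 5 copies of the motif core, 4 of them close together, while MCOLN1 and CTSA hold 2 each. The stretches show only matches that lie wholly before the start. In the same windows LAMP1 has another match from position -2, across the start, and ATG3 another from position 5. The 7 members with the motif lay on both sides of 0. Their median log2 ratio was 0.08 on day 3, -0.06 on day 5 and -0.16 on day 5 against day 3. For the 32 compared members whose windows lacked it the medians were 0.06, 0.02 and -0.09. None of the 7 was called. Among the 32, 3 were called higher on day 3, and 1 higher and 1 lower in each other comparison. Of all genes, 6.27%, 6.56% and 9.01% were called higher in the 3 comparisons, and 8.08%, 5.15% and 6.90% lower. At these shares a group of 7 can hold none. On day 3 the 7 members with the motif ranged from -0.26 for MCOLN1 to 0.28 for ATG3. A match is a description of letters and not a binding site.

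Of the 14 lysosomal genes, NPC2 was called on day 3, and none was called in either comparison with day 5. On day 3, 6.27% of all genes were called higher. In the comparisons of day 5 with day 0 and day 3, 6.56% and 9.01% were called higher and 5.15% and 6.90% lower. NPC2, the soluble protein that hands cholesterol to NPC1 in the lysosome (ENSG00000119655, chromosome 14 from 74476192 to 74494177, minus strand), had 1378, 1780 and 1914 reads, or 63.8, 83.4 and 72.9 CPM. It stood highest on day 3, with ratios of 0.39 (0.28 to 0.49) on day 3 against day 0, 0.19 (0.09 to 0.29) on day 5 against day 0 and -0.19 (-0.29 to -0.10) on day 5 against day 3. Its membrane partner NPC1 had 142, 137 and 131 CPM, with ratios of -0.05 and -0.11 against day 0. The gene ISCA2 overlaps NPC2 on the opposite strand, with 365, 402 and 548 reads.

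The lowest lysosomal gene on day 3 was MCOLN1, a calcium channel of the lysosomal membrane, with 31.6, 26.3 and 27.2 CPM and ratios of -0.26 (-0.43 to -0.10) on day 3 and -0.22 (-0.37 to -0.07) on day 5. The membrane proteins LAMP1 and LAMP2 had ratios of -0.00 and -0.06 on day 3, and -0.16 and -0.00 on day 5. The proton pump subunits lay on both sides of 0 on day 3: ATP6V1H had 46.7, 55.9 and 57.6 CPM, with 0.26 (0.14 to 0.38) on day 3 and 0.31 (0.19 to 0.42) on day 5, whereas ATP6V1A had 39.9, 38.7 and 41.7 CPM and ATP6V0D1 114, 133 and 109.6 CPM.

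Cathepsin D, CTSD, was the most abundant member, at 716, 757 and 667 TPM on days 0, 3 and 5. Its ratios were 0.21 (0.18 to 0.25) on day 3, -0.08 (-0.12 to -0.04) on day 5 and -0.29 (-0.33 to -0.26) on day 5 against day 3. These are uncertain, since 9.3% of its reads were uniquely placed and the gene AC068580.4 is annotated over it on the same strand. On uniquely placed reads alone the 3 ratios were 0.36, -0.53 and -0.89, each of them past the size rule. The proteases CTSA, CTSB and CTSL had day 3 ratios of 0.08, -0.04 and 0.17 and day 5 ratios of 0.01, -0.18 and -0.06. The glycosidases GLA and HEXA had day 3 ratios of 0.12 and 0.15. In all, 11 of the 46 compared members had under 90% of reads uniquely placed.

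The ratios that involve day 5 followed base composition. Over 12487 genes, the rank correlation of the log2 ratio with the GC content of the longest transcript was 0.17 on day 3 against day 0, -0.42 on day 5 against day 0 and -0.53 on day 5 against day 3. Over the 46 members it was 0.06, -0.49 and -0.52. With transcript length it was -0.38, -0.10 and 0.25 over all genes and -0.29, -0.19 and 0.15 over the members. The genes in each correlation share their 2 libraries, and no p is given. In the ratio of day 5 to day 3, 1 of the 12 members over 55% GC lay above 0, with a median of -0.12, and 10 of the 16 members under 45% GC did so, with a median of 0.07. With both trends removed the 2 medians were 0.01 and -0.10.

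**Figure D4:**
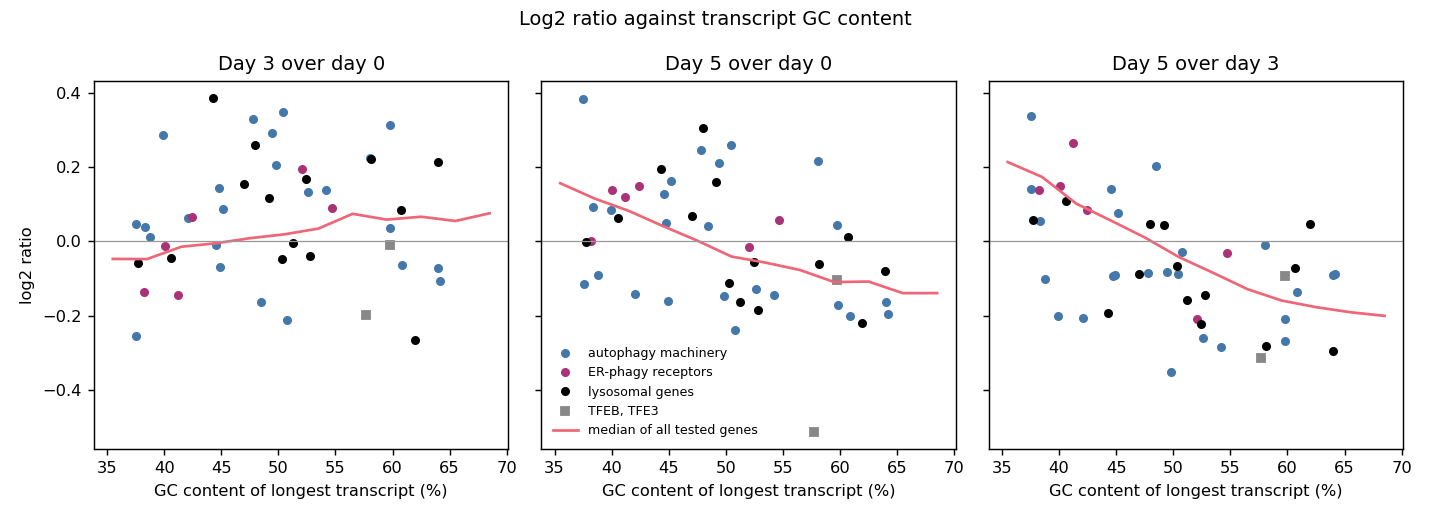
Log2 ratio of each compared member against the GC content of its longest transcript, with the median of all compared genes in GC bins of 3 percentage points (line). The members slope down with GC content on day 5 over day 0 and day 5 over day 3 (rank correlations of -0.49 and -0.52), along with all genes, and not on day 3 over day 0 (0.06).

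With the trends removed, other members were called. The share of all genes called in this way was not counted, so these calls have no background beside them. On day 3 against day 0 the 3 called higher were ATG3 at 0.34, HEXA at 0.33 and MAP1LC3B at 0.35. SQSTM1 was called higher at 0.35 and GABARAPL2 lower at -0.34 on day 5 against day 0, in place of ATG12 and TFEB. Between day 5 and day 3, ATG3 was called lower at -0.35 and no member higher. MAP1LC3B on day 3 was the 1 call of the 7 shared between the 2 ways of computing the ratios.

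Reads in introns, which include those of unspliced RNA, made up 3.34%, 2.75% and 3.33% of the members' reads on days 0, 3 and 5, against 6.01%, 5.59% and 6.68% over all genes. The share was 3.13%, 2.04% and 2.52% for the ER-phagy receptors, 4.51%, 3.62% and 4.36% for the autophagy machinery and 2.01%, 1.87% and 2.19% for the lysosomal genes. It was lowest on day 3 in each of these groups, as over all genes.

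Other genes of the same pathways, 112 in number and listed by role, were counted in the same way. Of the 103 compared, 3 were called higher and 1 lower on day 3 against day 0, where 6.27% and 8.08% of all genes were. The counts were 4 higher and 2 lower on day 5 against day 0 (6.56% and 5.15% of all genes), and 1 higher and 3 lower on day 5 against day 3 (9.01% and 6.90%). Their median log2 ratios were 0.08, 0.02 and -0.05. On day 3 those called higher were UFC1, the conjugating enzyme of the ubiquitin-like protein UFM1, at 0.38, the proton pump subunit ATP6V0E1 at 0.37 and CLN3, a lysosomal membrane protein, at 0.34. UFC1 had 47.5 CPM on day 3 and 36.4 CPM on day 0. ATG2B, the paralogue of ATG2A, was called lower on day 3, at -0.43, and higher on day 5 against day 3, at 0.45, with 33.2, 24.6 and 33.6 CPM on days 0, 3 and 5.

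Among the pathway genes called on day 5 against day 0, FUCA1, a fucosidase, had 8.53 CPM on day 5 and 5.74 CPM on day 0, a ratio of 0.57 (0.25 to 0.90). The pump subunit ATP6V1G1 was at 0.35, the mannosidase MANBA at 0.33 and the protease ATG4A, which trims ATG8 proteins, at 0.36. ATG16L2, a paralogue of ATG16L1, was called lower, at -0.42. Between day 5 and day 3, CLN3 was lower at -0.57, and the mannosidase MAN2B1 and the protease LGMN at -0.34 each. CLN3 is uncertain, with 10.7% of reads uniquely placed. Among proton pump subunits, 11 of 13 lay above day 0 on day 3, against 52.0% of all genes, with a median of 0.15 and 1 called higher, against 6.27%. Above day 0 on day 5 lay 9 of 13, against 51.2% of all genes, with a median of 0.09 and 1 called higher, against 6.56%. Above day 3 on day 5 lay 4 of 13, against 50.1%, with a median of -0.05 and 0 called. With the length and GC trends removed the 3 medians were 0.10, 0.06 and -0.08. The other pathway lists, of ER-phagy, autophagy and lysosomal genes, had 12 of 15, 19 of 30 and 29 of 45 above day 0 on day 3. On day 5 those lists had 12 of 15, 16 of 30 and 23 of 45 above day 0.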

How the data were processed

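Total RNA of 3 samples of the inducible hairpin line, taken after 0, 3 and 5 days of doxycycline, was sequenced with a SMARTer mRNA kit, per the labels' protocols, which do not mention replicates. The deposited tables hold, per the file headers, read counts per gene (total, unique, exon and intron) and TPM values computed by the authors. Which aligner and counter they used is not given in the sources used here. According to the submitters' processing notes the build was mm10, a mouse genome, but the gene identifiers are human: 57980 of 58243 are in GENCODE 29, 56588 of them with the same span on GRCh38. The 3 columns of a series-wide table were not used. The members and lists were chosen with earlier results of these data known.

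Counts were scaled with TMM (edgeR 4.0.16 in R 4.3.3; factors 1.01, 0.968 and 1.02), with a prior count of 0.5. Ratios have exact conditional (Clopper-Pearson) 95% intervals (scipy 1.17.1); reads without molecular identifiers are not independent molecules, and neither intervals nor floors cover more than counting error. A gene was compared if it averaged 50 reads or more. Alternatives were DESeq2 1.42.0 size factors, library totals, the authors' TPM plus 0.5, unique or exon reads, a prior count of 5, other minimums, 1.5-fold, and lowess removal of length and GC trends. The steps were tested on simulated data. Full values are given for receptors, ATG8 genes, TFEB, TFE3 and members called; others by the extremes of each role, with further members named by role after their values were seen. Promoter sequences are RefSeq's (GRCh38.p14). A called gene of the pathway lists is not reported here by name.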

Additional observations from a re-analysis of the deposited data

How the results depend on the processing

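No paired analysis was possible because there is 1 library per time. The same fact limits every value: a ratio can reflect the library as well as the time. The counts of called members moved with the settings, and except where fewer genes or a higher threshold set the count by construction, the cause was not tested. The share of all genes called was counted for the main setting and at 1.5-fold only, so the other counts have no background beside them. On day 3 against day 0 (3 higher, 0 lower), the count called higher was 0 with library totals, 0 with the authors' TPM, 1 with exon reads, 6 with unique reads and 0 at 1.5-fold, and the count called lower was 2 with library totals and 2 with TPM (MCOLN1 and RB1CC1). For day 5 against day 0 (1 higher, 1 lower), the count called higher was 0 at 1.5-fold. The count called lower was 0 with TPM, 2 with unique reads, 0 with exon reads, 0 with a minimum mean of 200 reads and 0 at 1.5-fold. For day 5 against day 3 (1 higher, 1 lower), the count called higher was 0 with the length and GC trends removed and 0 at 1.5-fold. The count called lower was 0 with library totals, 0 with TPM, 3 with unique reads, 0 at 1.5-fold and 0 among genes with at least 90% unique reads. The lysosomal median on day 3 against day 0 was -0.0331 with TPM and -0.00479 among genes with at least 90% unique reads, against 0.10, and on day 5 against day 3 it was 0.0387 with TPM, against -0.08. The ER-phagy median on day 5 against day 3 was -0.0175 with the trends removed, against 0.11. Smaller medians also turned sign. On day 3 against day 0 the autophagy median (0.06) was -0.0120 with library totals and -0.0404 with TPM, and the ER-phagy median (0.03) was -0.0410 and -0.0471. On day 5 against day 0 the autophagy median (-0.02) was 0.0412 with no minimum, where ULK2 enters, and the lysosomal median (-0.03) was 0.00113 with the trends removed. The autophagy median of day 5 against day 3 (-0.09) was 0.00791 with TPM. Library totals and TPM moved the median of all genes by -0.07 and -0.09 on day 3 against day 0 and by 0.07 and 0.09 on day 5 against day 3. With DESeq2 size factors, the larger prior count or the minimum of 10 reads, the counts stayed within 1.5 times and the medians of the 3 groups kept their sign. Depth limits TFEB (79 to 93 reads) and RETREG1 (67 to 99 reads) most among the members compared.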

Other observations

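A list of 12 autophagy genes reported to depend on ATF4 or CHOP in amino acid-starved mouse fibroblasts, 11 of them members described above and the other ATG10, was counted in the same libraries. On day 3 against day 0, 9 of 12 lay above 0, against 52.0% of all compared genes, with a median log2 ratio of 0.08, and 1 was called higher, MAP1LC3B, against 6.27% of all genes. On day 5 against day 0, 6 of 12 lay above 0, against 51.2%, with a median of 0.01, and 1 was called higher, ATG12, against 6.56%. The median of day 5 against day 3 was -0.09, with 3 of 12 above 0, against 50.1%, ATG12 called higher, against 9.01% of all genes, and GABARAP lower, against 6.90%. ATF4 itself had log2 ratios of 0.38 (0.33 to 0.43) on day 3 and 0.25 (0.20 to 0.30) on day 5 against day 0, and DDIT3, which encodes CHOP, 0.68 (0.50 to 0.86) and 0.40 (0.23 to 0.58), with 55.1% of DDIT3 reads uniquely placed. On uniquely placed reads alone DDIT3 was at 0.44 (0.21 to 0.67) on day 3 and 0.10 (-0.14 to 0.33) on day 5, so its day 5 ratio is uncertain. DDIT4, a stress-induced inhibitor of the kinase mTORC1, had 1.05 on day 3 and 0.57 on day 5, with 60.3% of reads uniquely placed. On those reads alone DDIT4 was at 0.99 and 0.50.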
